A study of Sus scrofa with 4 samples.

Results

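Transcripts of the nuclear-encoded respiratory chain were compared complex by complex in porcine oocytes. Members were the rows of the count table whose symbols belong to NADH dehydrogenase, succinate dehydrogenase, the cytochrome bc1 complex, cytochrome c, cytochrome c oxidase or mitochondrial ATP synthase, and 39 of 4381 listed genes met that rule. The V-ATPase, a proton pump of lysosomes, was left out. The members were 13 genes of complex I, 2 of complex II, 2 of complex III, cytochrome c, 10 of complex IV, 10 of complex V and the complex I assembly factor NDUFAF3. Pig RefSeq holds 82 protein-coding symbols that match the rule. Medians, sums, shares and ratios of a complex below therefore cover its listed members and not the whole complex.

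The study asked how SIRT6, a nuclear deacylase, acts in pig oocyte maturation. M II oocytes, arrested at the second meiotic metaphase, were sequenced after 42 to 44 h of in vitro maturation. The controls (2 libraries) received no inhibitor, and the SIRT6-inhibited oocytes (2 libraries) were matured with 100 μM SIRT6-IN-1, a small molecule inhibitor of the enzyme dissolved in DMSO; whether the controls received DMSO is not given in the sources used here. Inhibition was by this agent alone, so its action on other proteins was not separated from its action on SIRT6. Nothing in the sources used here says that the libraries of a group came from separate collections, so the p-values measure only the spread between these samples, which may be technical.

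The respiratory chain passes electrons from NADH and succinate to oxygen and uses the resulting proton gradient to make ATP. Complexes I and II take electrons in, complex III passes them to the mobile carrier cytochrome c, complex IV hands them to oxygen, and complex V is the ATP synthase. Oocytes rely on mitochondrial ATP during meiosis, and the chain is also a source of superoxide.

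The listed genes summed to 4646129 counts in control 1, 3405960 in control 2, 3239200 in SIRT6-inhibited library 1 and 4972602 in SIRT6-inhibited library 2. The number of genes with a count was 2411 and 2689 in the controls against 2277 and 2320 after inhibition. A transcript below 3 counts, or 0.603 to 0.926 CPM (counts scaled to a common library total) depending on the library, could not be told from 0, which covers counting error only. The 15 listed oocyte markers had counts in every library and summed to 78341 and 83583 CPM in the controls and 77347 and 76381 CPM in the SIRT6-inhibited libraries. KPNA7 took the most counts, and single markers did not all follow this sum. GDF9 had 6128 and 10613 counts in the controls against 3147 and 1887 with the inhibitor. ZP2 had 17181 and 15380 against 11005 and 13374, also lower without overlap after scaling. ZAR1, with 388 and 417 against 709 and 170, lay on either side of the controls. Of 22 listed cumulus or granulosa markers, 9 and 10 were at 0 in the controls against 15 and 9 with the inhibitor. Their summed level was 387, 363, 186 and 365 CPM in the same order, led by KITLG or VCAN, while FSHR, LHCGR, AMH, AREG and TNFAIP6 were at 0. SIRT6-inhibited library 1 was therefore the lowest of the 4 in these markers, and the part this plays in the results was not tested. Of the 3 listed blood markers, 1 had counts, 4 for CD68 in control 2. In such pooled samples, fewer cells of a type and less RNA per cell cannot be told apart.

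No respiratory chain gene passed an adjusted p of 0.05, and neither did any of the 2387 genes tested across the table (0%) with edgeR's quasi-likelihood test. At an unadjusted p under 0.05, 216 genes passed with edgeR, and 231 with limma-voom, which also gave 0 adjusted calls. DESeq2 gave 237 at the unadjusted level and 37 adjusted calls, of which 0 were respiratory chain genes. Without SIRT6-inhibited library 1, 77 genes passed the adjusted test, without SIRT6-inhibited library 2, 25 did, and without control 2, 1 did. The values below are accordingly described, and no single gene is called changed.

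Of the 39 members, 36 had a count in some library and 33 were abundant enough to be tested. Fitted values were lower in SIRT6-inhibited oocytes for 25 and higher for 8, or 75.8% lower, against 52.8% lower over all tested genes. Without control 2 the split was 18 lower and 15 higher, and with RLE factors or DESeq2 it was 22 lower and 11 higher. The median log2 fold change was −0.43 over the members and −0.04 over all tested genes. For the members it was −0.07 without control 2, −0.23 without SIRT6-inhibited library 2 and −0.05 when each library had to reach 10 counts. At an unadjusted p under 0.05, 2 members were lower, against 5.99% of all tested genes, and 0 were higher, against 3.06%. Which members passed depended on the setting. With limma-voom, and where each library had to reach 10 counts, ATP5F1A alone passed. With a replicate block, 0 did. Both SIRT6-inhibited libraries lay below both controls for 10 members, as they did for 22.2% of all tested genes, and above both controls for 3, as for 17.9% of all tested genes. The 10 lower members were NDUFA6, NDUFA8, NDUFA13, NDUFB6, SDHD, COX6A1, ATP5F1A, ATP5PO, ATP5L and ATP5IF1, and the 3 higher ones were NDUFV2, NDUFS5 and CYCS. The share with an unadjusted p under 0.05 was close to the background. No test was made over the list, and nothing particular to it is read from these counts.

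**Figure D1:**
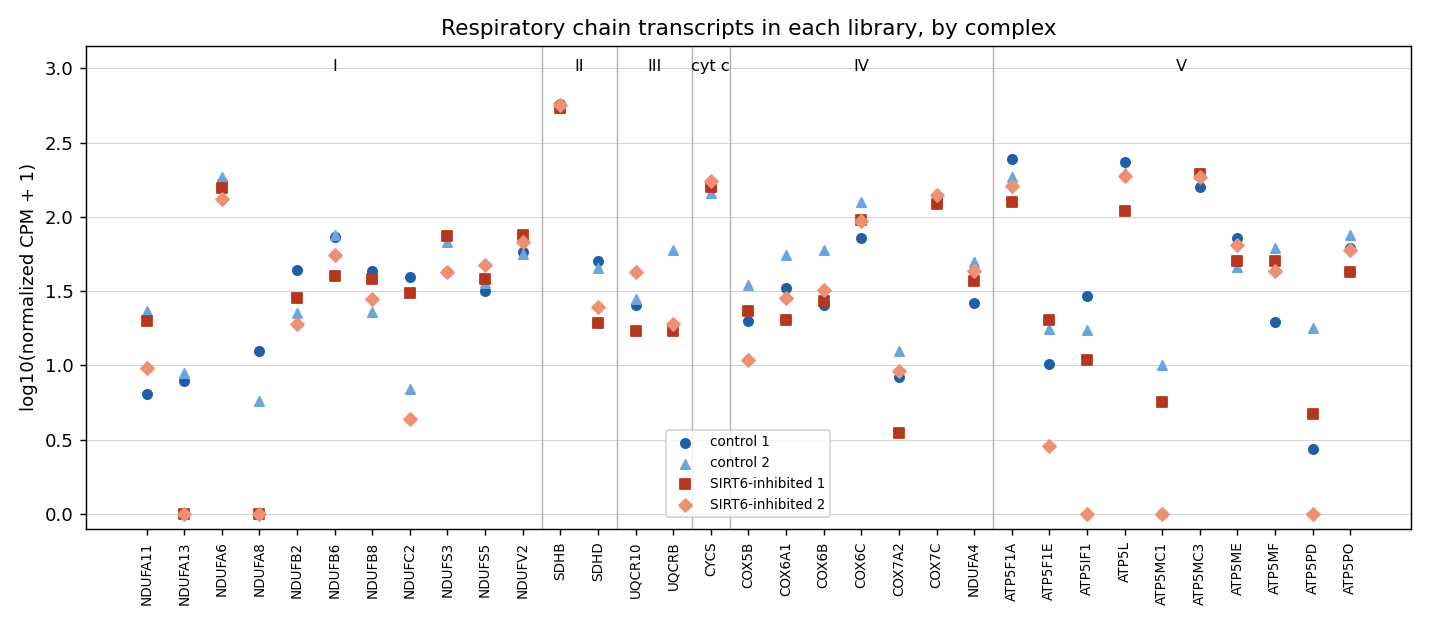
Normalized CPM of the 33 tested members in each of the 4 libraries, on a log10(normalized CPM + 1) axis, grouped by complex; each point is 1 library, circles and triangles being controls and squares and diamonds SIRT6-inhibited. NDUFA8 and NDUFA13 lie at 0 in both SIRT6-inhibited libraries, while SDHB is nearly superimposed in all 4.

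Complex I takes electrons from NADH. Its 13 members hold 2 core subunits, which carry the catalytic path, and 11 accessory subunits, which surround it. The tested core subunits NDUFS3 and NDUFV2 were both higher, with a median log2 fold change of 0.21, whereas 8 of 9 tested accessory subunits were lower, with a median of −0.44. These include NDUFA8 and NDUFA13, which were at 0 in both SIRT6-inhibited libraries and could only come out lower, and without them 6 of 7 were lower, with a median of −0.31. The difference between core and accessory subunits was not tested, and it rested in part on signs that turned. NDUFS3 was lower in 2 of 14 processing settings, and the accessory subunits NDUFA11 (−0.008) and NDUFB8 (−0.013) were higher in 7 and 6 of them. With RLE factors, DESeq2 or a replicate block, complex I had 6 lower and 5 higher members. NDUFV2, which carries an iron-sulfur cluster next to the NADH site, had 265 and 196 counts in the controls and 240 and 319 in the SIRT6-inhibited libraries. Scaled for library size, both SIRT6-inhibited libraries lay above both controls, and the log2 fold change was 0.33 (SE 0.328, edgeR adjusted p = 0.939).

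The accessory subunits NDUFA8 and NDUFA13 were the members with an unadjusted p under 0.05. Both passed the filter on low counts through the controls alone and were not tested where each library had to reach 10 counts, so nothing is read from their number. NDUFA8, which lies on chromosome 1 from 262243225 to 262258186 of Sscrofa11.1, had 53 and 17 counts in controls 1 and 2 and 0 in both SIRT6-inhibited libraries. NDUFA13, on chromosome 2 from 58401542 to 58410414, had 32 and 28 counts in the controls and 0 in both SIRT6-inhibited libraries. The groups did not overlap for either gene, although the counts in the controls were low. Set against the mean of the 3-count floors of both SIRT6-inhibited libraries, the control mean was at least 10.4-fold higher for NDUFA8 and at least 9.50-fold higher for NDUFA13. Set against the lower control in place of the control mean, these limits were 6.15-fold and 8.88-fold, and that of NDUFA8 thus rested largely on control 1. The edgeR adjusted p-values were 0.504 and 0.510. Across the whole table, 93 genes were at 0 in both SIRT6-inhibited libraries with counts in both controls, and 6 genes showed the reverse, and 2 and 0 of these were members. Neither gene had an unadjusted p under 0.05 with limma-voom, with a replicate block or a crossed replicate block, or without control 1, control 2 or SIRT6-inhibited library 2.

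NDUFA6, the complex I member with the most counts, had 786 and 655 counts in the controls and 498 and 632 in the SIRT6-inhibited libraries. After scaling, both SIRT6-inhibited libraries lay below both controls (log2 fold change −0.31, SE 0.225, edgeR adjusted p = 0.833), and the change was −0.20 without SIRT6-inhibited library 2. NDUFS5, another accessory subunit, had 142 and 124 counts in the controls and 120 and 221 in the SIRT6-inhibited libraries, higher in the latter after scaling (0.35, SE 0.487, adjusted p = 0.977 with edgeR), and 0.18 without SIRT6-inhibited library 2. Among the untested members, NDUFAB1, the mitochondrial acyl carrier protein, had 0 and 63 counts in the controls and 6 and 0 in the SIRT6-inhibited libraries. NDUFC1 and NDUFAF3 had counts in control 2 alone, 3 and 13. The remaining accessory subunits NDUFA11, NDUFB2, NDUFB6, NDUFB8 and NDUFC2 had log2 fold changes from −0.66 to −0.008. Of these, NDUFC2 had 178 and 21 counts in the controls against 95 and 16 with the inhibitor, and its log2 fold change of −0.44 (SE 1.29) was −2.73 without SIRT6-inhibited library 1 and positive in 2 of 14 settings.

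Complex II oxidizes succinate and was represented by SDHB and SDHD, whose values differed in size. SDHB, the iron-sulfur subunit that relays electrons, lies on chromosome 6 from 75648362 to 75678111 and had 2649 and 1928 counts in the controls against 1722 and 2695 with the inhibitor. The groups overlapped, with a log2 fold change of −0.024 (SE 0.132, edgeR adjusted p = 0.992). SDHD, a membrane anchor that binds ubiquinone, lies on chromosome 9 from 39790654 to 39803602 and had 228 and 156 counts in the controls and 59 and 113 in the SIRT6-inhibited libraries. Both SIRT6-inhibited libraries were below both controls, with a log2 fold change of −1.15 (SE 0.521, adjusted p = 0.570 with edgeR). It was negative in all 14 processing settings run for it.

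Within a library, the relation of these subunits does not depend on library size. SDHD made up 7.92% of complex II counts in control 1 (exact 95% interval 6.96 to 8.97) and 7.49% in control 2 (6.39 to 8.70). It made up 3.31% in SIRT6-inhibited library 1 (2.53 to 4.25) and 4.02% in SIRT6-inhibited library 2 (3.33 to 4.82). The intervals of the controls lay above those of the SIRT6-inhibited libraries, but they cover counting error only. With 2 libraries a group, an exact permutation test (two-sided) cannot give a p below 0.333.

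Complex III, which passes electrons to cytochrome c, was represented by the accessory subunits UQCRB and UQCR10. UQCRB had 79 and 208 counts in the controls and 52 and 87 in the SIRT6-inhibited libraries, a log2 fold change of −1.14 (SE 0.766, edgeR adjusted p = 0.793). UQCR10 had 113 and 96 counts in the controls and 52 and 198 in the SIRT6-inhibited libraries (0.16, SE 0.694, adjusted p = 0.992 with edgeR). In both genes the groups overlapped. Control 2 stood above the other libraries for UQCRB, and without it the fold change was 0.002. For UQCR10 the SIRT6-inhibited libraries lay on either side of the controls, and the fold change was 0.68 without SIRT6-inhibited library 1 and −0.67 without SIRT6-inhibited library 2. CYCS, the mobile carrier cytochrome c, had 730 and 510 counts in the controls and 510 and 834 in the SIRT6-inhibited libraries. Both SIRT6-inhibited libraries lay above both controls after scaling, narrowly, with a log2 fold change of 0.14 (SE 0.220, edgeR adjusted p = 0.980). It was 0.071 without control 2 and 0.071 without SIRT6-inhibited library 2.

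Complex IV hands electrons to oxygen, and 7 of its 10 listed members had counts. The muscle isoform COX7A1, the heart isoform COX8H and NDUFA4L2, a paralogue of NDUFA4, were at 0 in every library. Of the 7 with counts, 6 were lower. COX7C had 608 and 464 counts in the controls and 387 and 665 in the SIRT6-inhibited libraries, and COX6C had 331 and 442 against 302 and 444. Both overlapped between the groups, with log2 fold changes of −0.017 (SE 0.238) and −0.071 (SE 0.346), so their direction was not resolved. That of COX7C turned positive with RLE factors, with DESeq2 and without SIRT6-inhibited library 1 (0.077). That of COX6C turned positive with limma-voom and without control 2 (0.378), and was −0.426 without control 1. COX6A1, the isoform found outside muscle, had 150 and 194 counts in the controls against 62 and 131 with the inhibitor. The groups did not overlap, with a log2 fold change of −0.90 (SE 0.568, edgeR adjusted p = 0.754) that was −0.48 without control 2. COX7A2, the widely expressed counterpart of COX7A1, had 34 and 41 counts in the controls and 8 and 39 in the SIRT6-inhibited libraries, and COX6B had 114 and 209 against 84 and 149. Both overlapped (log2 fold changes −0.82, SE 1.44, and −0.54, SE 0.604). The COX7A2 value was −0.22 without SIRT6-inhibited library 1, −1.91 without SIRT6-inhibited library 2 and −0.47 without control 2, and the COX6B value was 0.21 without control 2 and −1.05 without control 1. NDUFA4, now assigned to complex IV although named for complex I, had 117 and 172 counts in the controls and 116 and 201 in the SIRT6-inhibited libraries (0.083, SE 0.540), and its value ran from −0.32 without control 1 to 0.62 without control 2. It has 2 gene records in RefSeq, so its counts may be shared with a copy.

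Complex V, the ATP synthase, had 10 members, all with counts, of which 8 were lower. ATP5F1A, the alpha subunit of the catalytic head, was outside the rule for named genes, which ranked abundance by mean normalized CPM, and was chosen after its values were seen. It had 1121 and 659 counts in the controls and 399 and 769 in the SIRT6-inhibited libraries, without overlap after scaling (log2 fold change −0.59, SE 0.252, edgeR adjusted p = 0.551). ATP5L, a subunit of the membrane part, had 1082 and 694 counts in the controls and 351 and 901 in the SIRT6-inhibited libraries (−0.53, SE 0.303, adjusted p = 0.698 with edgeR). Its SIRT6-inhibited libraries also lay below the controls, far below in library 1 and closely in library 2. Its log2 fold change was −0.20 without SIRT6-inhibited library 1 and −0.98 without SIRT6-inhibited library 2, and that of ATP5F1A ran from −0.79 to −0.39 without single libraries.

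The rotor ring subunit genes ATP5MC1 and ATP5MC3 encode the same mature protein. ATP5MC3 had 733 and 685 counts in the controls and 622 and 888 in the SIRT6-inhibited libraries (log2 fold change 0.11, SE 0.218), and ATP5MC1 had 0 and 32 against 15 and 0. The groups overlapped for both, and each group held 1 library of ATP5MC1 at 0 and 1 well above the 3-count floor. The ATP5MC3 value was −0.037 without control 1. At the ends of the complex V range were ATP5PD, a peripheral stalk subunit with 8 and 60 counts in the controls and 12 and 0 in the SIRT6-inhibited libraries (−2.32, SE 2.35), and ATP5MF, a membrane subunit with 86 and 217 against 158 and 203 (0.20, SE 0.637). Their standard errors exceeded the size of the change, and both signs turned with single libraries. ATP5PD was 0.096 without control 2, and ATP5MF was −0.43 without control 1 and 1.29 without control 2. ATP5IF1, the inhibitor of the synthase, was chosen after its values were seen and had 131 and 58 counts in the controls against 32 and 0 with the inhibitor. The groups did not overlap, and the log2 fold change was −2.18 (SE 1.82, edgeR adjusted p = 0.905). Without SIRT6-inhibited library 1 the only remaining SIRT6-inhibited library was at 0, and the adjusted p of that edgeR fit, 0.00205, rested on this 1 library.

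**Figure D2:**
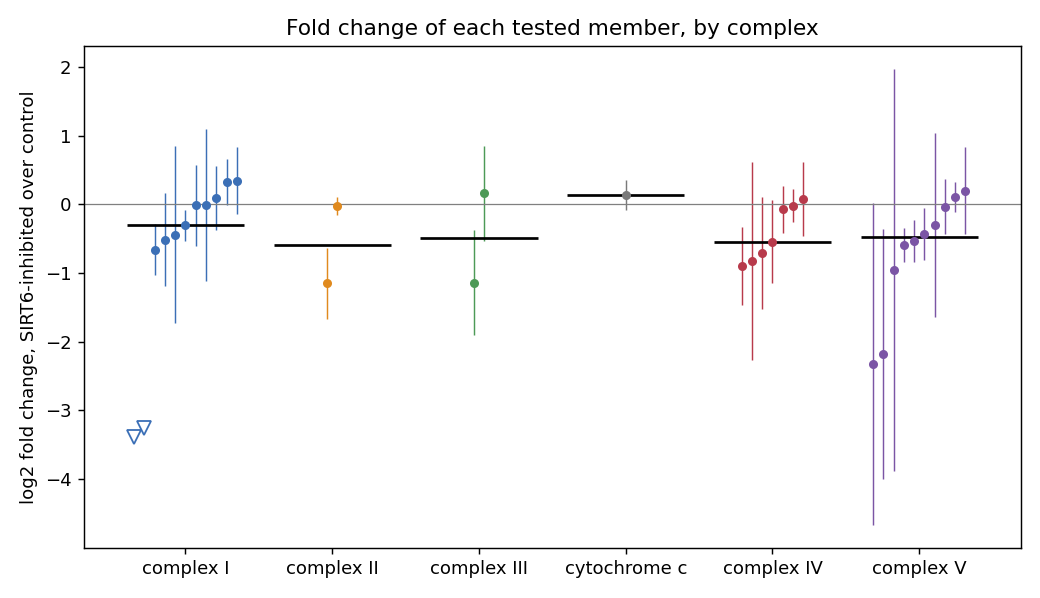
Log2 fold change of each tested member, SIRT6-inhibited over control, by complex; points carry the standard error of the edgeR fit, black lines are medians, and open triangles are upper limits for the 2 genes at 0 in both SIRT6-inhibited libraries. Medians run from −0.59 in complex II to −0.31 in complex I, where the median is −0.013 without the open triangles, and cytochrome c is at 0.14.

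The medians by complex were −0.31 in complex I (11 genes), −0.59 in complex II (2 genes), −0.49 in complex III (2 genes), −0.54 in complex IV (7 genes) and −0.48 in complex V (10 genes). With NDUFA4 counted in complex I they were −0.16 in complex I and −0.63 in complex IV. The complex I median rested on NDUFA8 and NDUFA13, since without these 2 genes it was −0.013 (9 genes). Where each library had to reach 10 counts it was −0.009, and the medians of complexes IV and V were −0.30 and −0.23 (6 genes each). With limma-voom the medians of complexes III and IV were −0.285 and −0.305. The order of the complexes was not held: the spread between replicate libraries was 0.23 in complex I, 0.12 in complex II, 0.60 in complex III, 0.40 in complex IV and 0.25 in complex V (SD, log2). Leaving out control 2 moved complex IV to −0.025, complex V to −0.096 and complex III to 0.12. Leaving out control 1 moved complex IV to −1.05, and leaving out SIRT6-inhibited library 1 or 2 moved complex I to −0.57 or −0.006.

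The medians were also taken by abundance, and the difference between abundance ranges was not tested. Of the 33 tested members, 13 lay above the median abundance of all tested genes with a median log2 fold change of −0.03, against 0.02 for all genes in that range. The other 20 had a median of −0.63, against −0.26 for all genes below the median abundance. In complex V, the 5 members above the median abundance had a median of −0.43, with 4 lower, against −0.11 in complex I (4 genes), −0.044 in complex IV (2 genes) and −0.024 for SDHB. In all, 9 of the 13 abundant members were lower, against 567 of 1193 genes in that range. The abundant NDUFA6, NDUFB6, ATP5F1A, ATP5PO and ATP5L were among the 10 lower members whose groups did not overlap.

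**Figure D3:**
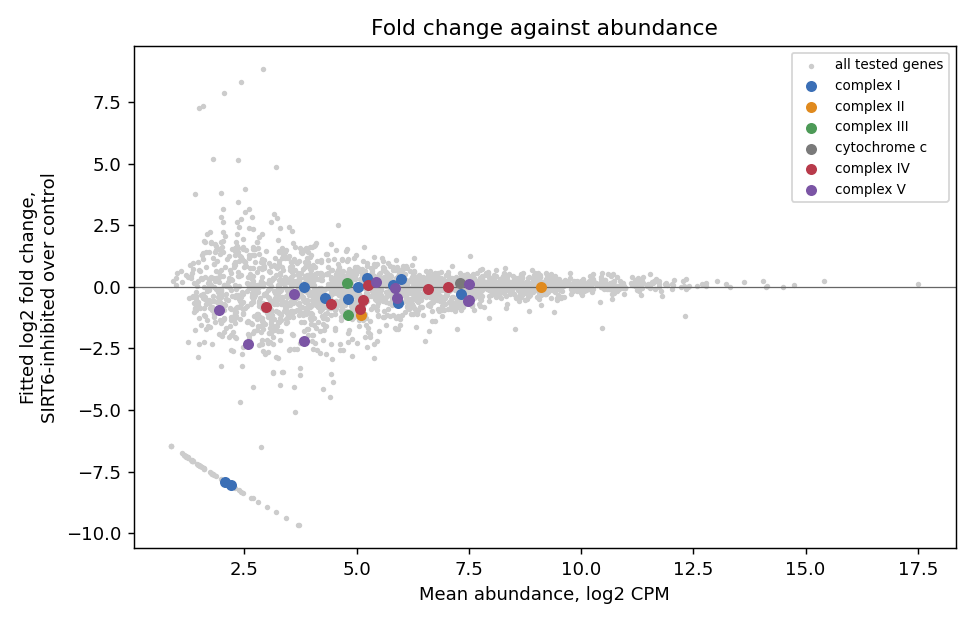
Fitted log2 fold change, SIRT6-inhibited over control, against mean abundance in log2 CPM for 2387 tested genes (grey) and 33 members (coloured by complex). The diagonal band at the lower left holds genes at 0 in both SIRT6-inhibited libraries, whose fitted values are no measure of size; members above the median abundance have a median of −0.03.

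Summed over members, the normalized level was 2543 ± 98.5 CPM in controls and 2212 ± 71.4 CPM in SIRT6-inhibited oocytes (mean ± SD, n = 2 libraries each), a ratio of 0.870 without overlap. Complex V was 818 ± 7.22 CPM in controls and 652 ± 67.1 CPM in SIRT6-inhibited oocytes, a ratio of 0.796, and complex I was 518 ± 0.258 against 445 ± 68.2 CPM, a ratio of 0.858. Neither overlapped under any of 4 scalings. ATP5F1A and ATP5L carried 82.7% of the difference in complex V. Complex II had a ratio of 0.942 and overlapped when scaled by RLE factors. Complex III and complex IV overlapped, with ratios of 0.722 and 0.866, and cytochrome c had a ratio of 1.10, higher without overlap under the 4 scalings.

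Within each library, the share of respiratory chain counts taken by each complex needs no scaling, though it is a share of counts and not of molecules. Complex V took 33.3% in control 1 (exact 95% interval 32.4 to 34.2) and 31.1% in control 2 (30.2 to 32.1). It took 28.0% in SIRT6-inhibited library 1 (26.9 to 29.0) and 30.9% in SIRT6-inhibited library 2 (30.0 to 31.8). The groups did not overlap, but the intervals of control 2 and SIRT6-inhibited library 2 did. Complex II took 25.1% and 22.5% in the controls and 25.6% and 25.8% in the SIRT6-inhibited libraries, and SDHB supplied 92.1% to 96.7% of its counts. Cytochrome c took 6.37% and 5.49% in the controls and 7.33% and 7.68% in the SIRT6-inhibited libraries. Both were higher in the SIRT6-inhibited libraries, by a small margin for complex II. For both, the intervals of control 1 and SIRT6-inhibited library 1 overlapped. They were 24.3 to 25.9 and 24.6 to 26.6 for complex II, and 5.93 to 6.83 and 6.73 to 7.97 for cytochrome c. For complex II, the interval of control 1 also overlapped that of SIRT6-inhibited library 2, 25.0 to 26.7.

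Complex I took 21.0% and 19.8% in the controls and 22.8% and 17.5% in the SIRT6-inhibited libraries, which lay on either side of the controls. Complex IV took 12.6% and 17.7% in the controls and 14.8% and 15.4% in the SIRT6-inhibited libraries, and complex III took 1.68% and 3.28% against 1.49% and 2.62%. Both overlapped. Of the 10 ratios between pairs of complexes, 1 separated the groups. Complex II counts were 0.754 and 0.721 times those of complex V in the controls and 0.916 and 0.836 times in the SIRT6-inhibited libraries. Among all tested genes, the groups separated for 22.2% (lower) and 17.9% (higher), so nothing particular is read from this 1 ratio. The complex II difference in share, SIRT6-inhibited minus control, was 1.94 percentage points with both members and −1.10 with SDHB alone left out, so its direction rested on SDHB. The normalized level of complex II was itself lower, at a ratio of 0.942, against 0.870 over all members. Its higher share is therefore no rise in complex II counts. The complex V difference was −2.78 points with all members. With 1 of its 10 members left out at a time, it ran from −4.37 without ATP5MC3 to −1.35 without ATP5F1A and was −1.56 without ATP5L. It was negative each time, but the groups overlapped in 5 of these 10 cases. With the top member of every complex left out together, the complex II difference was −1.54 points and that of complex V −0.662 when members were ranked by counts, and −1.43 and −5.04 when ranked by normalized CPM.

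**Figure D4:**
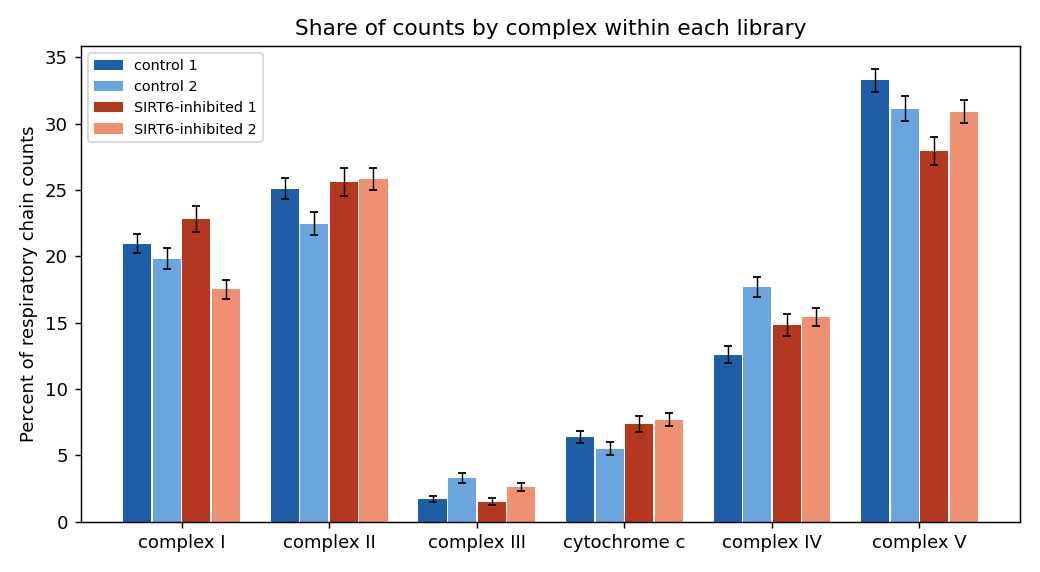
Share of respiratory chain counts taken by each complex and by cytochrome c in each of the 4 libraries, in percent; bars are libraries and error bars exact 95% binomial intervals, which cover counting error only. Complex V is at 33.3% and 31.1% in the controls and at 28.0% and 30.9% in the SIRT6-inhibited libraries, while complex I spreads from 17.5% to 22.8% within the SIRT6-inhibited group.

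Other genes of mitochondrial energy metabolism were taken from lists of assembly factors, the tricarboxylic acid cycle, mitochondrial DNA upkeep and electron entry outside complexes I and II. Of 11 listed assembly factors, 9 were tested, 6 of them lower (52.8% of all tested genes were lower), and 1 was lower with an unadjusted p under 0.05 (5.99% of all tested genes were). This was TMEM126A, an assembly factor of complex I, with 53 and 29 counts in the controls and 0 in both SIRT6-inhibited libraries (edgeR adjusted p = 0.487). It too passed the filter on low counts through the controls alone. Of 14 tested genes of the tricarboxylic acid cycle and pyruvate dehydrogenase, 10 were lower (71.4%, against 52.8% of all tested genes). With an unadjusted p under 0.05, 1 of the 14 was lower, close to the background of 5.99%. CS, citrate synthase, had 541 and 363 counts in the controls and 113 and 322 in the SIRT6-inhibited libraries, without overlap (log2 fold change −1.10, SE 0.390, edgeR adjusted p = 0.505). That value was −0.71 without SIRT6-inhibited library 1 and −1.64 without SIRT6-inhibited library 2. SIRT6-inhibited library 1 was the lowest in cumulus markers and also had the fewest counts, and the part either plays was not tested. None of the tested genes of the remaining lists, 1 of mitochondrial DNA upkeep and 2 of electron entry, had an unadjusted p under 0.05 with edgeR. Of 26 symbols looked up for mitochondrial DNA-encoded subunits, 0 were among the listed genes. These subunits were therefore not analysed here.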

How the data were processed

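Counts per gene were used as the authors deposited them, in 4 libraries of M II oocytes (2 control, 2 SIRT6-inhibited). The submitters' processing notes name TopHat2 2.0.13, Cufflinks 2.2.1, Cuffnorm and Cuffdiff, without their roles, and 2 genome builds, of pig and mouse; the counting step is not given in the sources used here. Genes were kept by edgeR's filterByExpr (minimum count 10, minimum total 15), which left 2387 of 4381, scaled by TMM (factors 0.966 to 1.04) and tested with the quasi-likelihood F-test of edgeR 4.0.16 in R 4.3.3, with Benjamini-Hochberg adjustment over all tested genes. The test was run on simulated data first. Normalized CPM were counts over TMM-scaled totals. For genes at 0 in both SIRT6-inhibited libraries the bound was the control mean over the mean 3-count floor. Alternatives used DESeq2 1.42.0 and limma 3.58.1. Shares had exact Clopper-Pearson 95% intervals. Locations came from RefSeq on Sscrofa11.1, where 30 of 39 members matched by symbol. Named genes were members with an unadjusted p under 0.05, those at 0 in 1 group, the 2 with the highest mean normalized CPM and the lowest and highest fold change of each complex, isoform pairs, and CYCS. Members and lists were chosen with earlier results of these data known. Gene lengths were not used here, so rankings and shares between genes are of counts or normalized CPM and not of molecules.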

Additional observations from a re-analysis of the deposited data

How the results depend on the processing

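The number of genes passing the adjusted test was 0 with RLE factors, library totals, TMM without the 10 most abundant genes and limma-voom. It was 43 with no filter on low counts, 2 with at least 10 counts in every library, 37 with DESeq2, and 0 to 77 when single libraries were left out. With a replicate block it was 6, and with a crossed replicate block, added after the data were seen, 2. The correlation of same-numbered deviations was −0.117. With 2 libraries a group, this value cannot show whether replicate numbers paired the samples. Respiratory chain genes passing it numbered 0 to 1 without single libraries. Genes with an unadjusted p under 0.05 numbered 111 to 302 without single libraries. Among respiratory chain genes, 2 at first, they numbered 4 with no filter, 1 with at least 10 counts in every library, 1 with limma-voom, 0 with the replicate block and 1 to 6 without single libraries. Under that stricter filter the complex medians were −0.009 (I), −0.303 (IV) and −0.229 (V), and with limma-voom they were −0.285 (III) and −0.305 (IV). Among genes above the median abundance, a choice made after the data were seen, they were −0.108 (I), −0.024 (II), −0.044 (IV) and −0.433 (V). With NDUFA4 counted in complex I they were −0.16 (I) and −0.626 (IV). Without single libraries they ranged from −0.567 to −0.006 (I), −0.703 to −0.491 (II), −0.947 to 0.117 (III), −1.05 to −0.025 (IV) and −0.504 to −0.096 (V). Without genes at 0 in both libraries of a group, added after the data were seen, the complex I median was −0.013. With the top member of all 5 complexes left out together, the difference in share was −1.54 points (II) and −0.662 points (V) when ranked by counts, and −1.43 (II), 0.632 (III) and −5.04 points (V) when ranked by normalized CPM. With SDHB alone left out it was −1.10 points (II). The ranking by normalized CPM and the single genes were added after the data were seen. COX7C was 0.002 with RLE factors and 0.002 with DESeq2, and COX6C 0.031 with limma-voom. Fold changes whose sign turned without single libraries ranged from −0.066 to 0.006 (SDHB), −1.78 to 0.002 (UQCRB), −0.671 to 0.677 (UQCR10), −0.125 to 0.077 (COX7C), −0.426 to 0.378 (COX6C), −0.037 to 0.252 (ATP5MC3), −0.322 to 0.620 (NDUFA4), −8.34 to 0.096 (ATP5PD), −0.428 to 1.29 (ATP5MF), −1.05 to 0.210 (COX6B) and −7.29 to 6.31 (ATP5MC1). The last was set by libraries at 0. Signs also turned in some settings for NDUFS3, NDUFA11, NDUFB2, NDUFB8, NDUFC2, ATP5F1E and ATP5ME. The cause of these changes was not tested, and a lone library in a group was assumed to vary like the other group. The bounds of NDUFA8 and NDUFA13 were 8.71 and 7.93 with the floor of the shallower SIRT6-inhibited library, a definition added after values were seen. Shares per coding length were not run. Depth limits genes near 3 counts.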
